A study of Mus musculus with 8 samples.

Results

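The endoplasmic reticulum (ER) folds the proteins a hepatocyte secretes, and 38 mouse genes of that work, its chaperones, its disulfide enzymes, its degradation machinery and the sensors of the unfolded protein response, are described here in cells with and without VWA8. The genes were listed by function, with earlier results of these data known, so their counts are a description of the list. Each gene was represented by the brightest of its probe sets that carry a single gene symbol in the platform annotation. This gave values for 37 of the 38 genes, out of 22180 genes measured. Vimp was found under its current name Selenos, and the only probe set for Pdia4 carries more than 1 symbol, so Pdia4 was not analysed.

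AML12 is an established line of mouse hepatocytes, and the product of Vwa8 is an ATPase of mitochondria. The study deleted the gene with CRISPR/Cas9 and set 4 knockout (VWA8-null) cultures beside 4 wild-type ones. All were differentiated, and the RNA of each was hybridised to 1 Affymetrix mouse array. Both genotypes grew in medium with serum, insulin at 0.005 mg/ml, transferrin, selenium and dexamethasone, a synthetic glucocorticoid, at 40 ng/ml. The labels do not say how many knockout clones stand behind the 4 cultures, and clone and deletion cannot be told apart.

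Proteins enter the ER unfolded. HSPA5 (BiP) and its cofactors hold them, calnexin and calreticulin hold those that carry sugars, protein disulfide isomerases join their cysteines, and proteins that fail are drawn back to the cytosol for ER-associated degradation (ERAD). When unfolded proteins build up, 3 membrane sensors respond, ATF6, IRE1 (the product of Ern1) and PERK (the product of Eif2ak3). ATF6 and XBP1, the factor whose messenger RNA is spliced by IRE1, raise transcription of chaperone and ERAD genes, whereas PERK slows translation and favours ATF4. Hepatocytes secrete much protein and are rich in this machinery.

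The elements through which ATF6 and XBP1 are known to act can be read in the promoters of these genes. The ER stress response element, ERSE, has the letters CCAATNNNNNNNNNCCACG, and its shorter relative ERSE-II has ATTGGNCCACG. Both were searched on both strands of the RefSeq promoter windows of GRCm38.p6, each 300 bases long around an annotated start, and the 2 patterns do not overlap in the matches found. ERSE was present in 10 of the 31 measured ER genes that have a window (32.3%), against 0.137% of all 27025 genes in the table, and ERSE-II in 2 of the 31 (6.45%) against 0.0444%. The matched elements are shown in the 5′ to 3′ direction of the motif, fixed letters in capitals, because they show how the bases between the fixed ends differ from gene to gene.
Hspa5: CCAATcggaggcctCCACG
Ero1b: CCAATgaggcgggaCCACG
Creld2: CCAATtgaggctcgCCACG
Pdia6: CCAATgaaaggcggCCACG
Dnajc3: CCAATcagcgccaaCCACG
Calr: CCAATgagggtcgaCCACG
Syvn1: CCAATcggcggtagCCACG
Canx: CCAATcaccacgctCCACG
Hsp90b1, first: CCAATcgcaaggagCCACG
Hsp90b1, second: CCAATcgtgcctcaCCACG
Derl3: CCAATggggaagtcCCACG
Herpud1, ERSE-II: ATTGGgCCACG
Dnajb11, ERSE-II: ATTGGcCCACG

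Whole windows are shown for 4 of these genes, written 5′ to 3′ on the strand of the gene with the fixed letters of ERSE or ERSE-II in capitals. Hspa5 (chr2:34771840-34772139, plus strand) is the best known bearer, and its element starts 65 bases before the annotated start. Ero1b (chr13:12565633-12565932, plus strand) had the largest change of all 37 genes and carries its element on the opposite strand, 201 bases before the start. Hsp90b1 (chr10:86705395-86705694, minus strand) is the only one with 2 matches, 1 on each strand. Herpud1 (chr8:94386179-94386478, plus strand) carries ERSE-II 52 bases before the start.
Hspa5: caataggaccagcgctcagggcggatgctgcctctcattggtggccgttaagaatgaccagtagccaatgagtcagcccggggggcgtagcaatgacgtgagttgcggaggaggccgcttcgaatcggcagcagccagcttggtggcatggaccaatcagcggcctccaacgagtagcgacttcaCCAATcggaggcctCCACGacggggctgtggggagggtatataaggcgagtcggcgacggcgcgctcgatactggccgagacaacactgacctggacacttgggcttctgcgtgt
Ero1b: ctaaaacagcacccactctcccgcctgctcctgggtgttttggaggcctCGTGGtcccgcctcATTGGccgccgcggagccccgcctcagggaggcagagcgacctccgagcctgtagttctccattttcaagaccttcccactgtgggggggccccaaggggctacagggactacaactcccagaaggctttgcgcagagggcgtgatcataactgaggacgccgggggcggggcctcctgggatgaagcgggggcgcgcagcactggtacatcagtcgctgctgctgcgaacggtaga
Hsp90b1: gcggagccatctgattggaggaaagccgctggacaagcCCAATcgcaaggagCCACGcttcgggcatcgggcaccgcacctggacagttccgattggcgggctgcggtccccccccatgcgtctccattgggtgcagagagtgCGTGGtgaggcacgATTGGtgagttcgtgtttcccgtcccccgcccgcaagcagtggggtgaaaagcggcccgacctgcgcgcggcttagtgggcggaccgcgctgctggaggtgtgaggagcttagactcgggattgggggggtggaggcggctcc
Herpud1: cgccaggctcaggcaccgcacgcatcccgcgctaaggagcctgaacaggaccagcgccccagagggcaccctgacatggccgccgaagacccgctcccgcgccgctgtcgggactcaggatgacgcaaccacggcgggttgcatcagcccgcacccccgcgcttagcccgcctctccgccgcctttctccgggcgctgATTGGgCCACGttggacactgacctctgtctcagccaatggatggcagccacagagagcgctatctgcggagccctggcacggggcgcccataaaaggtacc

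The arrays were alike in scale. Array medians ran from 4.27 to 4.33 on the log2 scale, and values correlated at 0.985 to 0.989 within a genotype and at 0.978 to 0.984 across genotypes. With 4 arrays in each group, their number limits the precision. Vwa8 (probe set 17302161) read between 8.91 and 9.01 on the wild-type arrays and between 5.07 and 5.33 on the knockout arrays, which matches the labels (exact permutation test, two-sided, p = 0.0286, the smallest p that 4 against 4 arrays allow). The 9 measured hepatocyte markers, Alb, Ttr, Apoa1 and Hnf4a among them, all lay above the median gene and all 9 passed the limma test as higher in the knockout. Their summed signal ran from 14.52 to 14.56 (log2) in wild type and from 14.99 to 15.06 in knockout, and its part in the ER results was not tested. Of the markers of other cell types, 7 of 8 for fibroblasts, 5 of 6 for macrophages and 5 of 5 for endothelium lay below the median gene, and none of these 3 lists had a member past the threshold (limma; 1, 1 and 0 members had an unadjusted p under 0.05). Of 5 measured cholangiocyte markers only 1, Epcam, lay below the median gene. In the knockout 2 of the 5, Krt7 and Cftr, were lower. The summed signal of the 5 overlapped, from 10.59 to 10.67 in wild type and from 10.56 to 10.67 in knockout. In bulk RNA, more cells with a transcript and more transcript per cell cannot be told apart.

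Across roles the ER genes were higher in the knockout. In limma, at an adjusted p under 0.05, 30 of 37 genes were higher in the knockout and 0 were lower (0 lower also at an unadjusted p under 0.05), where 10.4% of all 22180 genes were higher and 10.4% lower. The change was above 0 for 35 of the 37, against 49.5% of all genes, and 14 were higher by at least 0.5 on the log2 scale, against 3.85%. Among the 3890 genes whose mean level lay within the interquartile range of the ER genes, from 7.49 to 9.80, 22.3% passed as higher. The median log2 fold change of the 37 was 0.39, and that of all genes was -0.00. Changes were moderate: the 30 genes that passed rose between 1.13-fold (Hsp90b1) and 2.20-fold (Ero1b), and Ero1b alone reached 2-fold. All 4 knockout arrays lay above all 4 wild-type arrays for 32 of the 37 genes, against 12.9% of all genes.

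**Figure D1:**
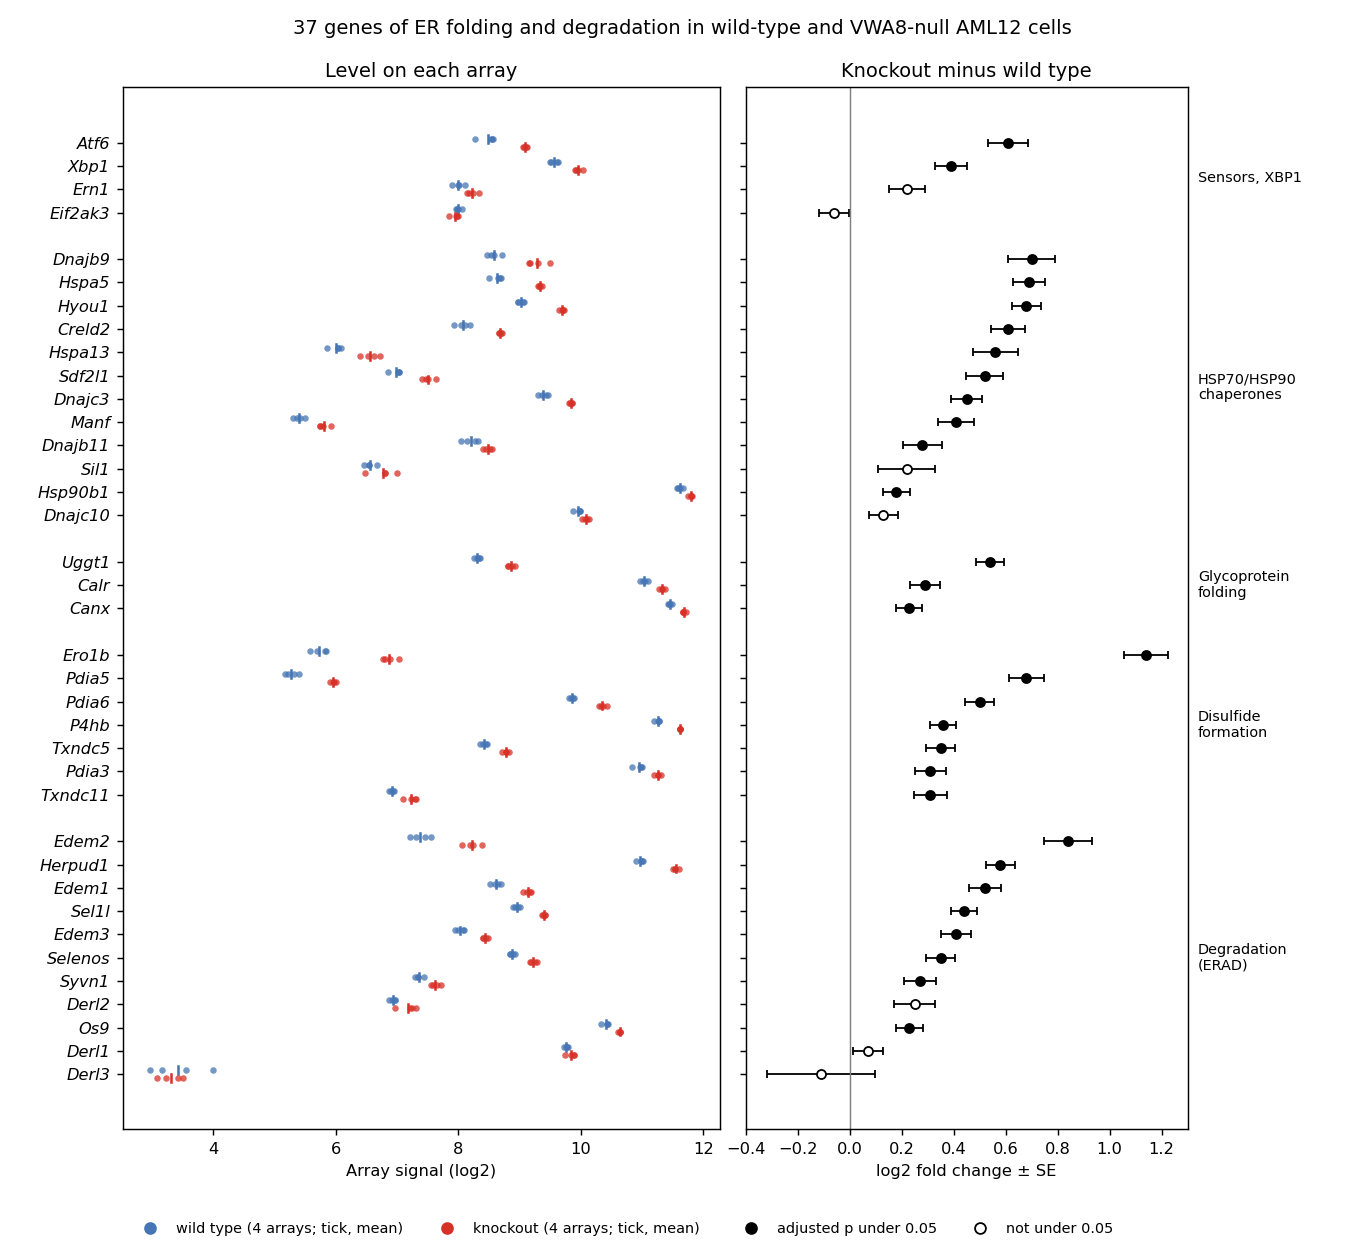
Left, log2 array signal of the 37 ER genes on each of 4 wild-type (blue) and 4 knockout (red) arrays, with ticks at the means, grouped by role; right, log2 fold change, knockout minus wild type, with its SE from limma and filled points for an adjusted p under 0.05. The fold changes lie right of 0 for 35 genes, Eif2ak3 and Derl3 lie left of it, and Ero1b stands furthest right at 1.14.

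**Figure D2:**
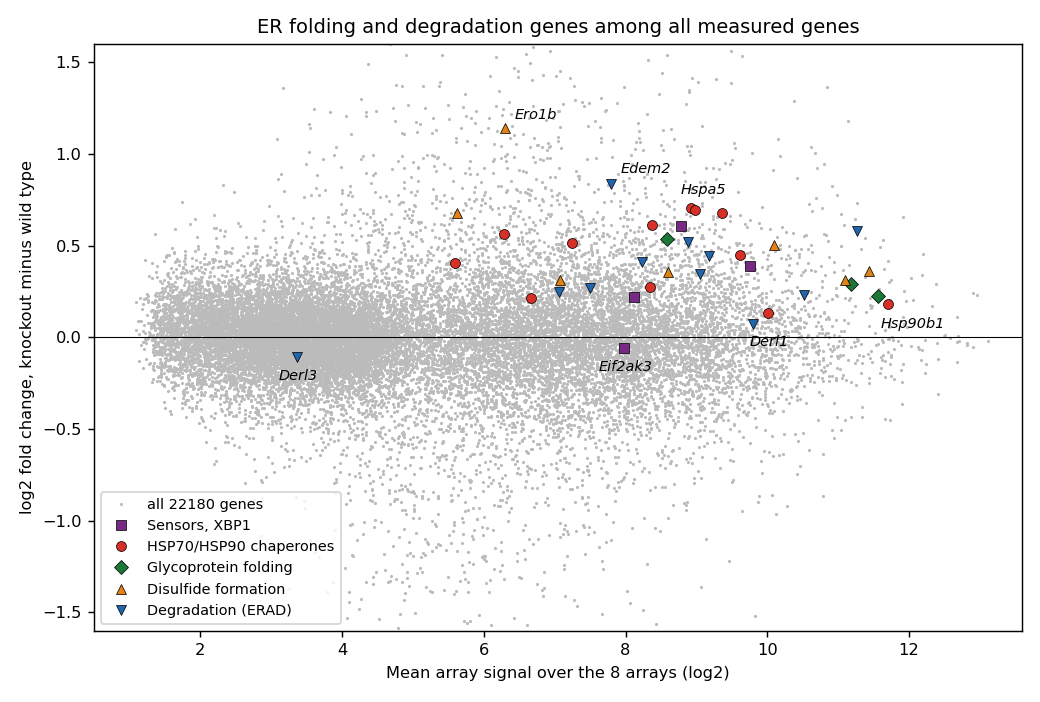
Mean log2 signal over the 8 arrays against log2 fold change, knockout minus wild type, for all 22180 genes (grey) and the 37 ER genes (coloured by role); the vertical axis is limited to changes of up to 1.6 in size. The ER genes lie above 0 at nearly all levels of signal, with Derl3 the single ER gene below the median level.

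Of the 3 sensors and Xbp1, 2 passed as higher, Atf6 and Xbp1, where 10.4% of all genes did. Atf6, whose protein is released from the ER as a transcription factor, read 8.27, 8.55, 8.54 and 8.57 on wild-type arrays 1 to 4 and 9.12, 9.11, 9.05 and 9.07 on knockout arrays 1 to 4. The groups did not overlap, and wild-type array 1 was the lowest of all 8. Atf6 (probe set 17229556) thus rose by 0.61 ± 0.077 (log2 fold change ± SE, 4 arrays per group here and throughout), or 1.52-fold, with an adjusted p of 0.000553 in limma. Xbp1 (probe set 17246967) read 9.61, 9.49, 9.52 and 9.63 in wild type and 9.96, 10.03, 9.91 and 9.92 in knockout, again without overlap. It rose by 0.39 ± 0.060 (adjusted p = 0.00167). The probe set value does not separate spliced from unspliced Xbp1 messenger RNA.

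The other sensors stayed short of the threshold. Ern1 (probe set 17270888), which encodes the nuclease IRE1, read 8.01, 8.11, 7.89 and 8.0 in wild type and 8.15, 8.24, 8.17 and 8.34 in knockout. Its knockout arrays all lay above its wild-type arrays, but by a narrow margin, and its change of 0.22 ± 0.070 had an adjusted p of 0.0564. It passed in 5 of 17 alternative analyses, among them the one without wild-type replicate 2, and its adjusted p ran from 0.00928 to 0.131. Eif2ak3 (probe set 17459425), which encodes the kinase PERK, read 7.98, 7.97, 8.0 and 8.06 in wild type and 7.97, 7.99, 7.85 and 7.98 in knockout. Here the groups overlapped, and the change was -0.06 ± 0.057 (adjusted p = 0.582; it passed in 0 of 17 alternatives).

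Unequal change among related genes was tested on the log ratio of 2 genes on the same array, in exact permutation tests over the 70 arrangements of the arrays. The 10 pairs were chosen after their values were seen, so their p-values, adjusted over the 10, describe these arrays. Atf6 changed by 0.66 ± 0.069 more than Eif2ak3, by 0.39 ± 0.098 more than Ern1, and Ern1 by 0.28 ± 0.066 more than Eif2ak3. Each of the 3 ratios had no overlap between genotypes and an exact p of 0.0286, the smallest possible, which became 0.0571 after adjustment. None of the 10 pairs passed 0.05 after adjustment. A pair that alone reaches the smallest exact p cannot pass once 10 pairs are adjusted for, so no conclusion on equal change is drawn.

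Chaperones of the HSP70 and HSP90 kind and their cofactors passed as higher in 10 of 12 cases (83.3%, against 10.4% of all genes). The median over the 12 was 0.48, and with the replicate number as a block 8 passed. Hspa5 (probe set 17370103), the central HSP70 of the ER, read 8.50, 8.68, 8.70 and 8.65 in wild type and 9.30, 9.34, 9.31 and 9.36 in knockout. The knockout arrays were tightly grouped, and the lowest of them lay 0.60 above the highest wild-type array. It rose by 0.69 ± 0.061, or 1.62-fold (adjusted p = 6.97e-05). Hyou1 (probe set 17516564), a large HSP70 relative that exchanges the nucleotide of HSPA5, read 9.06, 8.97, 9.08 and 8.98 in wild type and 9.73, 9.71, 9.70 and 9.64 in knockout. Its rise of 0.68 ± 0.055 was close to that of Hspa5 (adjusted p = 4.60e-05). Hspa13 (probe set 17331533), an HSP70 relative of microsomes, read 5.86, 6.03, 6.09 and 6.04 in wild type and 6.53, 6.63, 6.39 and 6.72 in knockout. It rose by 0.56 ± 0.086, with knockout array 3 the lowest of its group and still above every wild-type array.

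J-domain cofactors hand clients to HSPA5 and trigger its ATPase, and 3 of the 4 measured passed. Dnajb9 (probe set 17280893), the cofactor ERdj4, read 8.58, 8.71, 8.54 and 8.47 in wild type and 9.30, 9.17, 9.15 and 9.50 in knockout. With 0.70 ± 0.092 (adjusted p = 0.000690) it had the highest fold change of the 12 chaperone genes. Dnajc3, the cofactor p58IPK, went from 9.39 ± 0.077 to 9.84 ± 0.028 (SD, n = 4 each), a rise of 0.45 ± 0.058. Dnajb11, the cofactor ERdj3, rose by 0.28 ± 0.075 (adjusted p = 0.0296), a call that was lost without wild-type replicate 1 or 2 and without knockout replicate 1, 2 or 4 (adjusted p up to 0.0802 over all alternatives). Dnajc10 (probe set 17372392), which carries both a J-domain and thioredoxin domains, read 9.87, 9.98, 9.98 and 9.97 in wild type and 10.02, 10.07, 10.14 and 10.10 in knockout. Its groups did not overlap, yet the change was small, at 0.13 ± 0.056, and did not pass (adjusted p = 0.143; 0.0165 to 0.350 over the alternatives).

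Cofactors without a J-domain were mostly higher as well. Creld2 (probe set 17313998), a secreted ER protein with EGF-like domains that is known to be induced by ER stress, read 8.05, 7.93, 8.19 and 8.11 in wild type and 8.70, 8.67, 8.66 and 8.71 in knockout. It rose by 0.61 ± 0.066 (adjusted p = 0.000212). Sdf2l1 (probe set 17328625), a partner of the J-domain cofactors, read 7.03, 7.02, 6.86 and 7.03 in wild type and 7.40, 7.64, 7.47 and 7.50 in knockout. Its rise was 0.52 ± 0.071, with wild-type array 3 apart from the other 3 and no overlap between genotypes. Manf, a nucleotide exchange inhibitor of HSPA5 that can be secreted, rose by 0.41 ± 0.069, from 5.40 ± 0.084 to 5.80 ± 0.086 (SD, n = 4 each).

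The HSP90 of the ER and an exchange factor had smaller changes than all others of this group except Dnajc10. Hsp90b1, which encodes GRP94, rose by only 0.18 ± 0.053, from 11.61 ± 0.046 to 11.79 ± 0.028 (adjusted p = 0.0403). Among the 30 genes that passed, this was the smallest change. The call was kept without wild-type replicate 2, and lost when any 1 of the other 7 arrays was left out (adjusted p up to 0.117 over all alternatives). Sil1, a nucleotide exchange factor of HSPA5, stood at 0.22 ± 0.109 with overlapping groups (adjusted p = 0.226); without knockout replicate 4, which at 6.47 lay among the wild-type values of 6.46 to 6.67, it passed.

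All 3 genes listed here for glycoprotein folding passed as higher, where 10.4% of all genes did. Among the further ER folding genes counted below, Ganab passed as higher (0.25 ± 0.056), while Mogs, Prkcsh and the dim Calr3 and Clgn did not pass. Uggt1 (probe set 17222106), which encodes the glucosyltransferase that returns unfolded glycoproteins to the lectin chaperones, read 8.26, 8.33, 8.30 and 8.36 in wild type and 8.92, 8.81, 8.87 and 8.81 in knockout. It rose by 0.54 ± 0.055 (adjusted p = 0.000173). The lectin chaperones themselves changed less, Calr (calreticulin) by 0.29 ± 0.057 and Canx (calnexin) by 0.23 ± 0.050, both from wild-type means above 11. Calr and Canx differed in change by 0.06 ± 0.039, with overlapping ratios (exact permutation p = 0.1714, adjusted p = 0.2143 over the 10 pairs).

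All 7 measured genes listed here for disulfide formation passed as higher, in the main analysis and in every alternative. Of all genes, 10.4% passed as higher in the main analysis. Among the further ER folding genes counted below, Ero1a changed by 0.08 ± 0.078 and did not pass (limma adjusted p = 0.585). Tmx1, Tmx3, Txndc12, Prdx4 and Qsox1 did not pass either, while Erp44 and Tmx4 passed as higher. Ero1b (probe set 17285204), an oxidase that recharges protein disulfide isomerase, read 5.58, 5.84, 5.82 and 5.69 in wild type and 6.81, 6.88, 6.77 and 7.04 in knockout. No wild-type array came within 0.93 of a knockout array, and the rise was 1.14 ± 0.085, or 2.20-fold (adjusted p = 2.82e-05). Pdia5 (probe set 17330058), a disulfide isomerase, read 5.22, 5.32, 5.40 and 5.17 in wild type and 5.97, 5.95, 5.91 and 6.01 in knockout, a rise of 0.68 ± 0.066. Pdia6 (probe set 17274249), another isomerase, read 9.84, 9.87, 9.88 and 9.80 in wild type and 10.36, 10.33, 10.29 and 10.42 in knockout, a rise of 0.50 ± 0.055. P4hb, the founding protein disulfide isomerase, rose by 0.36 ± 0.050, Txndc5 by 0.35 ± 0.057, Pdia3, the isomerase that works with calnexin, by 0.31 ± 0.060, and Txndc11 by 0.31 ± 0.064. These 4 had adjusted p-values from 0.000957 to 0.00779 in limma.

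Of 11 degradation genes 8 passed as higher (72.7%, against 10.4% of all genes), with a median of 0.35 over the 11. With the replicate number as a block, 6 passed. Edem2 (probe set 17393336), whose product trims mannose from glycoproteins bound for degradation, read 7.55, 7.45, 7.22 and 7.31 in wild type and 8.24, 8.39, 8.19 and 8.06 in knockout. It rose by 0.84 ± 0.094, or 1.79-fold (adjusted p = 0.000281). Edem1 (probe set 17461433) read 8.64, 8.60, 8.52 and 8.70 in wild type and 9.17, 9.19, 9.12 and 9.06 in knockout, a rise of 0.52 ± 0.062. Edem3 rose by 0.41 ± 0.058. Within this family of mannosidase-like proteins, Edem2 changed by 0.32 ± 0.077 more than Edem1 and by 0.43 ± 0.108 more than Edem3, without overlap of the ratios (exact permutation p = 0.0286 for both, adjusted p = 0.0571 over the 10 pairs).

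Of the other degradation genes, 5 passed and 3, the derlins, did not. Herpud1 (probe set 17504005), a membrane protein of the HRD1 ubiquitin ligase complex, read 11.02, 10.98, 10.90 and 10.99 in wild type and 11.54, 11.60, 11.54 and 11.51 in knockout. It rose by 0.58 ± 0.055 (adjusted p = 0.000105). Sel1l, the scaffold of the ligase, rose by 0.44 ± 0.051, Syvn1, the ligase HRD1 itself, by 0.27 ± 0.061, and Os9, a lectin that delivers glycoproteins to it, by 0.23 ± 0.053. With the replicate number as a block, Syvn1 and Os9 did not pass (adjusted p = 0.0569 and 0.0541). Selenos, the selenoprotein that links the complex to the VCP segregase, rose by 0.35 ± 0.055. That call was lost (adjusted p = 0.0986) when its brighter probe set was averaged with a second, dim one.

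The derlins are membrane proteins that work with the HRD1 complex in drawing proteins out of the ER, and none of the 3 passed. Derl1 stood at 0.07 ± 0.057 (adjusted p = 0.453), from 9.77 ± 0.027 to 9.84 ± 0.071 (SD, n = 4). Derl2 stood at 0.25 ± 0.080 with an adjusted p of 0.0591, with knockout array 4, at 6.97, just under the highest wild-type array and the other knockout arrays at 7.22 to 7.31. Without knockout replicate 4 it passed, as it did in 6 of 17 alternatives in all. Derl3 was dim, at 3.42 ± 0.45 and 3.31 ± 0.19, and at -0.11 ± 0.208 (adjusted p = 0.793) no change was detectable. The 3 derlin pairs had adjusted p-values from 0.0952 to 0.5429 (exact permutation, over the 10 pairs), which does not show equal change given the limit of that test. Derl1 changed by 0.18 ± 0.053 less than Derl2, with overlapping ratios.

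The rise was spread over the genome. The 37 genes lie on 15 chromosomes, and the median change of up to 30 measured genes on each side of them ran from -0.08 to 0.14. With that median subtracted from the knockout values, 30 of the 37 genes again passed and 0 passed as lower, and the median over the 37 was 0.342. Hspa5, Edem2, Pdia3 and Uggt1 lie among neighbours that were shifted upward by 0.10 to 0.14. After subtraction they stood at 0.58, 0.74, 0.21 and 0.40, all past the threshold.

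**Figure D3:**
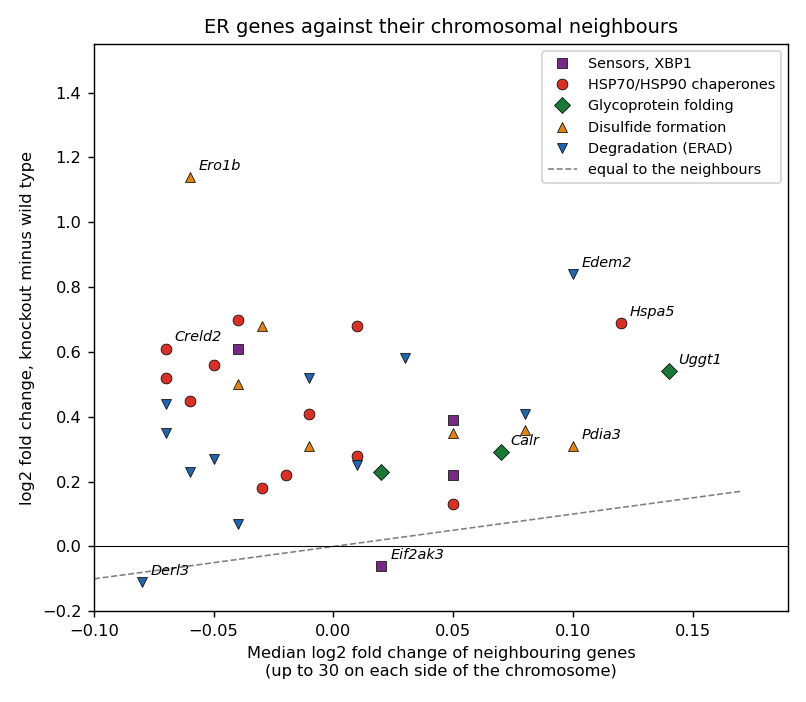
Median log2 fold change of the neighbouring genes on the chromosome (up to 30 on each side) against the log2 fold change of each of the 37 ER genes, knockout minus wild type; the dashed line marks equality. All points but Eif2ak3 and Derl3 lie above the line, and the neighbour medians span only -0.08 to 0.14.

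Genes with and without ERSE in their promoter window can be set side by side. The 10 genes with ERSE had a median log2 fold change of 0.37 and 9 of them passed as higher, the exception being Derl3. The 21 with a window and no ERSE had a median of 0.36 and 17 passed. Herpud1 and Dnajb11, which carry ERSE-II, are among the 21. The match of Dnajb11 lies past the annotated start, at bases 8 to 18, whereas all other matches in these genes lie before it. With neither ERSE nor ERSE-II, 19 genes had a median of 0.36 and 15 passed. The shorter UPRE, searched on both strands as TGACGTGG or TGACGTGA, was found in Hspa5, Txndc5 and Txndc11, 3 of 31 genes (9.68%) against 1.22% of all genes. The 17 genes with none of the 3 motifs had a median of 0.39 and 13 passed. Outside the 37, 19 measured genes carry ERSE, and of these 1 passed as higher and 1 as lower, where 10.4% of all genes passed each way. Their median was -0.01, and they were not tested against the 10. A match describes the letters of the window and shows no binding, and the lack of an exact match does not show that an element is missing. Atf6, Derl1, Hspa13, Hyou1, Manf and Sil1 had no window in the table.

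**Figure D4:**
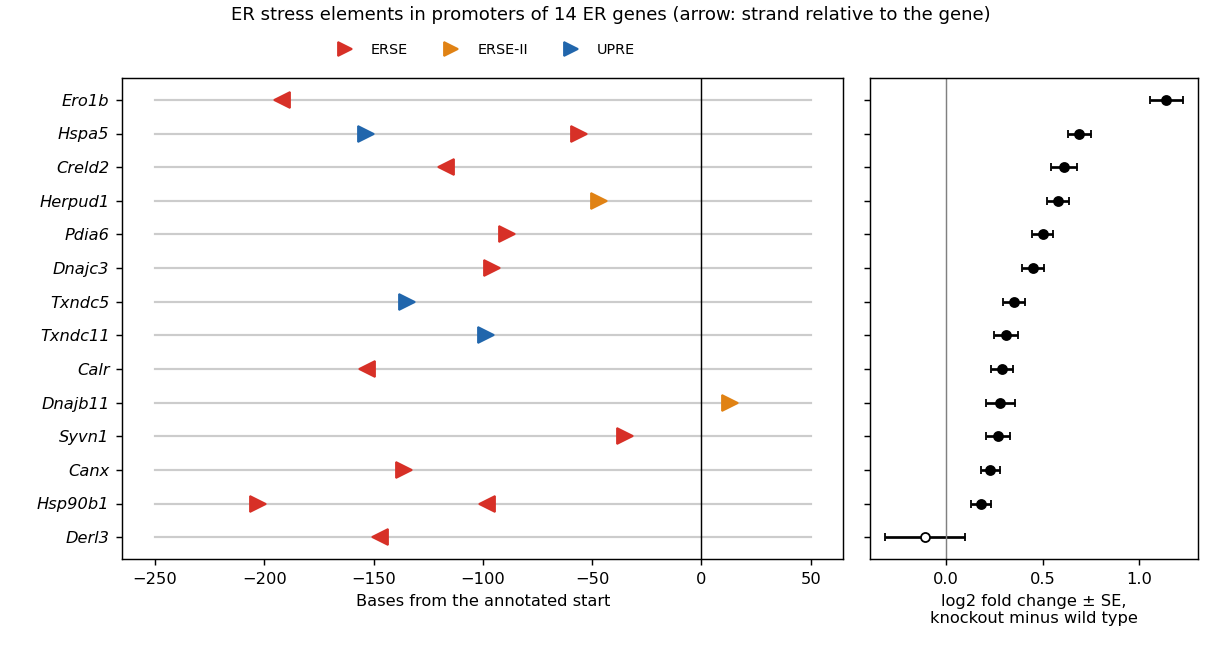
Left, position of ERSE, ERSE-II and UPRE matches in the promoter windows of 14 ER genes, in bases from the annotated start, with arrows for the strand relative to the gene; right, log2 fold change, knockout minus wild type, with its SE. ERSE-bearing genes occur from the top of the order (Ero1b, 1.14) to its end (Derl3, -0.11), and 13 of the 14 passed the threshold.

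Of other genes of the pathway, 90 were listed by function and 82 measured, with a median of 0.07. Of the 82, 23 passed as higher (28%) and 9 as lower, where 10.4% of all genes passed each way. Further ER folding genes came closest to the members described so far: 11 of 27 were higher (40.7%) and 1 lower, with a median of 0.20. Fkbp11, a prolyl isomerase of secretory cells, rose by 0.96 ± 0.099, Erp44, which retains oxidases in the ER, by 0.46 ± 0.053, Fkbp14 by 0.55 ± 0.084, and Dnajb14, a J-domain protein of the ER membrane, by 0.53 ± 0.074. Of 25 further degradation genes 4 were higher and 2 lower (median 0.03), a smaller share than among the 11 listed first, though the difference in share was not tested. Erlin1, a membrane protein that recruits a ligase to its substrates, rose by 1.00 ± 0.069, Erlec1, a lectin, by 0.54 ± 0.065, and Fam8a1, a partner of HRD1, by 0.26 ± 0.064, while Ubxn8, which tethers VCP, fell by 0.53 ± 0.080 on the log2 scale. Fam8a1 did not pass without wild-type replicate 2 or 4. Without wild-type replicate 4 only 2 were higher, and without any single wild-type array, or knockout replicate 1 or 2, only 1 was lower.

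Upstream regulators held genes that passed in both directions. Of 18 regulators 5 were higher (27.8%, against 10.4% of all genes) and 4 lower, with a median of -0.01. Their median wild-type level was 7.76, within the 7.49 to 9.80 range in which 22.3% of genes passed as higher. The list was not tested against the 37 genes. Without wild-type replicate 1 or 4 or knockout replicate 1 or 4, 3 were higher. Without wild-type replicate 1, 2 or 4 or knockout replicate 1, 2 or 4, 2 were lower. Creb3l3, an ER-bound transcription factor of liver and a relative of ATF6, read 7.75, 7.61, 7.70 and 7.64 in wild type and 8.74, 8.83, 8.69 and 8.70 in knockout. It rose by 1.06 ± 0.061 (adjusted p = 6.52e-06), and its neighbours were shifted the other way, by -0.15. Mbtps2, the protease that makes the second cut in ATF6, fell by 0.28 ± 0.058, and Rtcb, the ligase that joins the Xbp1 exons, fell by 0.31 ± 0.063. Wfs1, which restrains ATF6, rose by 0.33 ± 0.057.

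In the PERK branch 3 of 12 genes were higher (25%, against 10.4% of all genes) and 2 lower, with a median of -0.07. Their median wild-type level was 7.33, just below the 7.49 to 9.80 range in which 22.3% of genes passed as higher. Ddit3, the stress factor CHOP, read 7.20, 7.10, 7.33 and 7.17 in wild type and 6.87, 6.90, 6.71 and 6.87 in knockout, a fall with no overlap, at -0.36 ± 0.071 (adjusted p = 0.00671). Atf3, another stress-induced factor, read 6.87, 6.78, 6.65 and 6.78 in wild type and 5.49, 5.72, 5.70 and 5.12 in knockout, at -1.26 ± 0.130 (adjusted p = 0.000177). Asns, which makes asparagine, rose by 0.36 ± 0.066 and Nupr1 by 0.40 ± 0.080. Atf4 itself stood at 0.20 ± 0.070 with an adjusted p of 0.0744 (0.0114 to 0.177 over the alternatives), Ppp1r15a, the phosphatase subunit GADD34, at -0.11 ± 0.083, and Trib3 at -0.03 ± 0.125. The last 2 overlapped between genotypes and did not pass (adjusted p = 0.412 and 0.916).

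**Figure D5:**
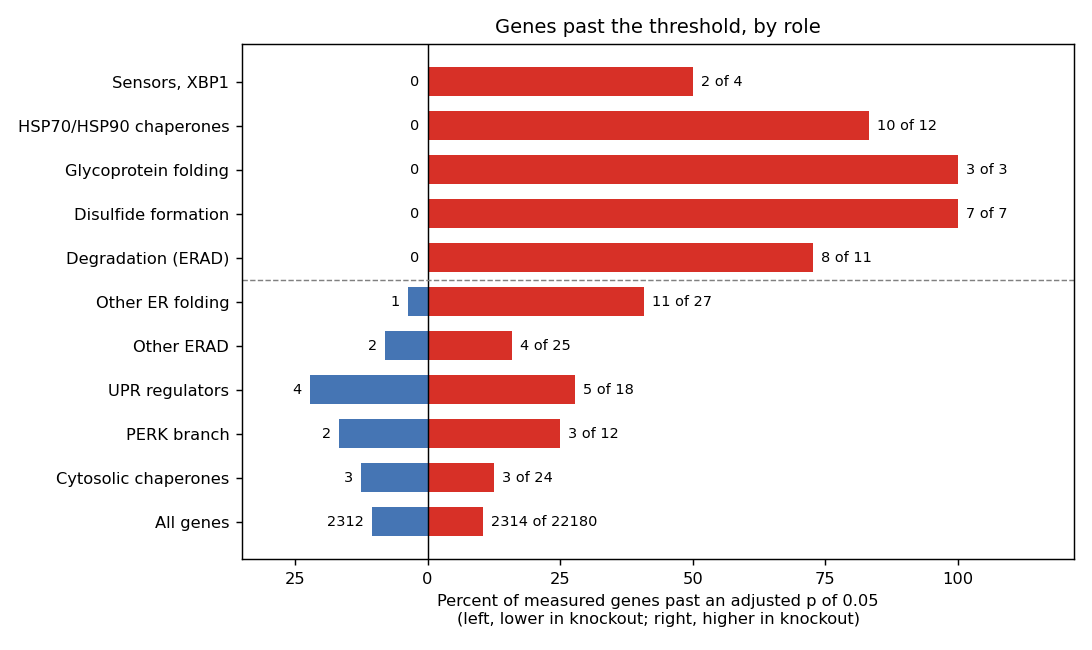
Percent of measured genes with an adjusted p under 0.05 in limma, higher in knockout to the right (red) and lower to the left (blue), for the 5 roles of the 37 ER genes (above the dashed line), for further genes of the pathway, for cytosolic chaperones and for all genes; numbers give genes past the threshold. The share of higher genes runs from 2 of 4 to 7 of 7 above the line and from 3 of 24 to 11 of 27 in the lists below it.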

How the data were processed

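The values are those the authors deposited, 1 log2 signal per probe set and array (0.44 to 13.55). The values themselves show the log2 scale. The labels do not state how background was corrected or how arrays were normalized and summarised. With no detection measure, dim signal and absence of signal look alike. Of 41345 probe sets, 23521 had 1 gene symbol, 1814 several and 16010 none. The design text names separate cultures, and p-values measure only the spread between these.

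Genotypes were compared over all 22180 genes and 8 arrays with limma 3.58.1 (R 4.3.3), lmFit and eBayes with genotype as the only term, two-sided, with Benjamini-Hochberg adjustment over all genes and a threshold of 0.05. The fit was tried on simulated data with independent noise and far fewer changed genes than passed here. That run checks the code and does not bear on the calls in these data. Members, roles and lists were chosen with earlier results of these data known. By rule, every member is named, with array values for those that rose by at least 0.5, the sensor group and those that missed the threshold without overlap. Vwa8, up to 4 genes of each other list with the smallest adjusted p, and Atf4, Ddit3, Ppp1r15a and Trib3 were also named. Further ER folding genes named beside the disulfide and glycoprotein groups were added by function, outside this rule. The marker and pathway lists were matched by symbol or Entrez Gene identifier. Gene order and promoter sequences came from RefSeq tables of GRCm38.p6. Protein sequences were not used here. Alternatives changed the scaling (median centring or quantile normalization), the variance model (intensity trend and robust variances, or array weights), the genes tested (without the dimmest 25% or 50%) and the probe sets (averaged per gene). Others added the replicate number as a block, subtracted the neighbours' median, or left out 1 array at a time. A planned change of offset did not apply to log2 values. Figures were drawn with matplotlib 3.10.9.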

Additional observations from a re-analysis of the deposited data

Results flagged for a closer look

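In each group of 4 arrays, 37 ER genes and Vwa8 were checked for an array far from the other 3, by its gap to the nearest array as a share of the group's range. Of 76 such groups 6 stood out, where chance gives about 1 in 20. In wild type, Sdf2l1 was low on replicate 3 (6.86 against 7.02 to 7.03, a share of 0.958), Dnajc10 was low on replicate 1 (9.87 against 9.97 to 9.98, 0.925) and Atf6 was low on replicate 1 (8.27 against 8.54 to 8.57, 0.917). In knockout, Canx was high on replicate 1 (11.71 against 11.66 to 11.67, 0.898), Eif2ak3 was low on replicate 3 (7.85 against 7.97 to 7.99, 0.882) and Os9 was low on replicate 3 (10.61 against 10.64, 0.837). The arrays concerned were not the same throughout, and most of these gaps are small in log2 units because the other 3 arrays lay very close together. Atf6 passed the threshold without wild-type replicate 1, as it did in all 17 alternatives.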

How the results depend on the processing

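Of the 30 ER genes that passed, 24 passed in all 17 alternatives, and Hsp90b1, Dnajb11, Canx, Syvn1, Os9 and Selenos each failed in at least 1. The number of members past the threshold ran from 25 to 33, and 0 passed as lower in any alternative. The lowest number, 25, came with the replicate number as a block, which lost Hsp90b1, Dnajb11, Canx, Syvn1 and Os9. The labels do not say whether the numbers pair the cultures. Deviations of same-numbered arrays correlated at -0.002 to 0.059 and those of differently numbered arrays at -0.061 to 0.041, which cannot decide it. Under the block 3717 of all genes passed in place of 4626, over all alternatives 3717 to 5573. The median over the members, 0.390, was 0.410 with median centring, 0.342 with neighbours subtracted and 0.365 to 0.405 with 1 array left out. Derl3 ran from -0.25 to 0.09 with 1 array left out and Trib3 from -0.12 to 0.09, and Trib3 was 0.01 with array weights; neither passed. Among the small lists, regulators passed as higher in 3 to 5 and lower in 2 to 5 cases, PERK branch genes as higher in 2 to 5, other folding genes as lower in 0 to 1, other degradation genes as higher in 2 to 6 and lower in 1 to 4, and cytosolic chaperones as higher in 2 to 5 and lower in 0 to 10. The causes were not tested.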

Other observations

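Cytosolic chaperones were listed by function to stand beside those of the ER. Of 24 measured, 3 were higher and 3 lower (12.5% each way, against 10.4% of all genes each way), with a median log2 fold change of 0.00. Their median wild-type level was 9.26, within the 7.49 to 9.80 range in which 22.3% of genes passed as higher. The list was not tested against the ER genes. Hspa1b, a stress-induced HSP70, went from 6.12 ± 0.23 to 6.91 ± 0.084 (SD, n = 4 each), a rise of 0.79 ± 0.111 (SE), and Hspa1a rose by 0.61 ± 0.134 from a dim 2.85 ± 0.14. These 2 genes are nearly identical copies, and their probe sets may share signal. Hspb1, a small heat shock protein, rose by 0.44 ± 0.102 and did not pass with the mean of its probe sets. Cct2, a subunit of the cytosolic chaperonin, fell by 0.23 ± 0.062 on the log2 scale, a call that was lost without wild-type replicate 1, 2 or 3, without knockout replicate 1, 2 or 3, with median centring, with the replicate block and with the neighbours subtracted. Whichever array was left out, at most 1 cytosolic chaperone passed as lower, and 0 did so without wild-type replicate 1, 2 or 3 or knockout replicate 2.

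Outside the members, Alg12, a mannosyltransferase of the ER, and Zfp57 were the 2 of 19 ERSE-bearing genes past the threshold, 1 higher and 1 lower. Nucb1 and Lgalsl were the 2 of 7 measured genes with ERSE-II past it, both higher. Of all genes, 20.9% passed in either direction and 10.4% as higher. These 4 genes were named after their values were seen.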
